A study of Homo sapiens with 8 samples.

Results

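The transcripts described here were the long noncoding RNAs (lncRNAs) that carry a LINC number or the name of a microRNA host gene and that were detected in Caco-2, a human colorectal adenocarcinoma cell line, with or without exogenous Siglec-XII. An entry of the expression table was taken as a member if its symbol was LINC followed by digits, or MIR followed by letters or digits and ending in HG, and if it reached a log2(TPM + 1) value of 1, equal to 1 TPM (a transcript's share of all transcripts, per 1000000 and corrected for length), in at least 4 of the 8 samples. By this rule 146 of 63816 entries were members, 134 of them LINC entries and 12 microRNA host entries, out of 2034 entries whose symbols had one of these forms. The members were thus chosen by their measured level, which is given as a description. The rule did not use the difference between the groups as such, but a low member could pass mainly through 1 group. LINC00882 reached the limit in all 4 samples of one group and in none of the other. LINC02298 reached it in all 4 samples with Siglec-XII and in 1 of the others, and LINC01549 mostly in samples with Siglec-XII.

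The table holds 4 RNA-Seq samples of cells stably carrying the empty pcDNA3.1 vector and 4 of cells carrying the same vector with SIGLEC12, which encodes Siglec-XII, a sialic acid-binding immunoglobulin-like lectin that has lost ligand binding in humans. Both groups went through the same G418 selection for stable clones, and the 2 groups share the cell line and the vector backbone. Because the 2 cell populations were transfected and selected separately, what distinguishes the selected cells and what Siglec-XII does cannot be told apart. The labels do not tie the 4 samples of a group to separate cultures, and the study's methods describe technical replicate libraries made from each sample, so it is uncertain whether the samples are independent. The p-values then measure only the spread between these samples, which may be technical.

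LINC entries are mostly spliced RNA polymerase II transcripts that lie between protein-coding genes and are not known to encode proteins, and many are kept at a low level because nuclear exosome complexes degrade them. A microRNA host transcript holds 1 or more hairpins in an exon or intron, which the Microprocessor (DROSHA and DGCR8) cuts out as precursors in the nucleus and DICER1 trims in the cytoplasm to mature microRNAs. The mature strand is loaded into an Argonaute protein and pairs with target mRNAs mainly through its seed, bases 2 to 8. The RNA-Seq measured the host transcripts and not the mature microRNAs.

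Within the spans of 10 of the 11 distinct host genes, RefSeq (GRCh38.p14) places 17 microRNA precursors, 6 of them in MIR17HG, with 29 mature sequences and 25 different seeds. MIR2052HG had no matched entry. One mature strand of each precursor is shown because the host levels below are levels of the RNA from which these strands are cut. Capitals mark the seed, and strands that share a seed stand next to each other.
hsa-miR-17-5p (MIR17HG): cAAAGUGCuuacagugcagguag
hsa-miR-20a-5p (MIR17HG): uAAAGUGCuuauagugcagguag
hsa-miR-18a-5p (MIR17HG): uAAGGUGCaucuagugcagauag
hsa-miR-19a-3p (MIR17HG): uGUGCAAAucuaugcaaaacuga
hsa-miR-19b-3p (MIR17HG): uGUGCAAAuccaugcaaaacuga
hsa-miR-92a-3p (MIR17HG): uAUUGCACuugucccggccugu
hsa-miR-221-3p (MIR222HG): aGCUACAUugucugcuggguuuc
hsa-miR-222-3p (MIR222HG): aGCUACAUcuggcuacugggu
hsa-miR-200c-3p (MIR200CHG): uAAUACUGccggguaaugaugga
hsa-miR-141-3p (MIR200CHG): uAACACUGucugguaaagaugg
hsa-miR-205-5p (MIR205HG): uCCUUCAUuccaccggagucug
hsa-miR-210-3p (MIR210HG): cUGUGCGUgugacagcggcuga
hsa-miR-22-3p (MIR22HG): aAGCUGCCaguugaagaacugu
hsa-miR-503-5p (MIR503HG): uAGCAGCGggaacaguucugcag
hsa-miR-600 (MIR600HG): aCUUACAGacaagagccuugcuc
hsa-miR-4458 (MIR4458HG): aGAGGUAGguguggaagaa
hsa-miR-663a (MIR663AHG): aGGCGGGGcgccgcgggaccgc

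The seed was shared between miR-17-5p and miR-20a-5p, between miR-19a-3p and miR-19b-3p, which all come from MIR17HG, and between miR-221-3p and miR-222-3p, which both come from MIR222HG. The miR-4458 seed is that of the let-7 family, whose maturation LIN28A and LIN28B block.

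The libraries were checked against their labels before the members were read. SIGLEC12 had a log2(TPM + 1) value of 0.06 to 0.17 in the 4 empty vector samples and of 10.63 to 10.76 in the 4 Siglec-XII samples. Of 16 genes that mark colon epithelium, CDX1, CDX2 and EPCAM reached 1 TPM in every sample and 11 reached it in none, among them CDH17, HNF4A and LGALS4, and the entries of KRT20, FABP1, SI and TFF3 were listed at 0 in every sample. Of 20 genes that mark trophoblast, 12 reached 1 TPM in every sample, including GATA3, TFAP2C, HSD3B1 and CYP19A1. The 6 that reached it in none were CGB3, CGB5, CYP11A1, ELF5, GCM1 and INSL4. The summed TPM of the trophoblast list was 2576 to 2640 in the empty vector samples and 2490 to 2535 in the Siglec-XII samples, and that of the colon list was 710 to 737 and 735 to 793. Most of the colon list thus went against the label in both groups alike, though CDX1, CDX2 and EPCAM did not. The trophoblast list was also mixed, and the members' levels are those of the cells labelled Caco-2. The part of these marker lists in any member's level was not tested, and in bulk RNA fewer cells of one type and less RNA per cell cannot be told apart.

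The 146 members together took 0.0820% to 0.0931% of all TPM. Their summed level was 885 ± 47.1 TPM (SD, n = 4) in the empty vector group, with values of 820, 931, 887 and 903, and 857 ± 24.5 TPM (n = 4) in the Siglec-XII group, with values of 858, 830, 850 and 889. The ranges of the 2 groups overlapped. The median member had a mean level of 2.43 TPM, with quartiles of 1.59 and 5.82, against 13.7 TPM for the median of the 15590 entries of any kind that passed the same limit. A few members carried much of the sum. The 10 highest made up 44.9% to 51.4% of it in each sample, and MIR663AHG alone made up 15.6% to 24.8%.

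**Figure D1:**
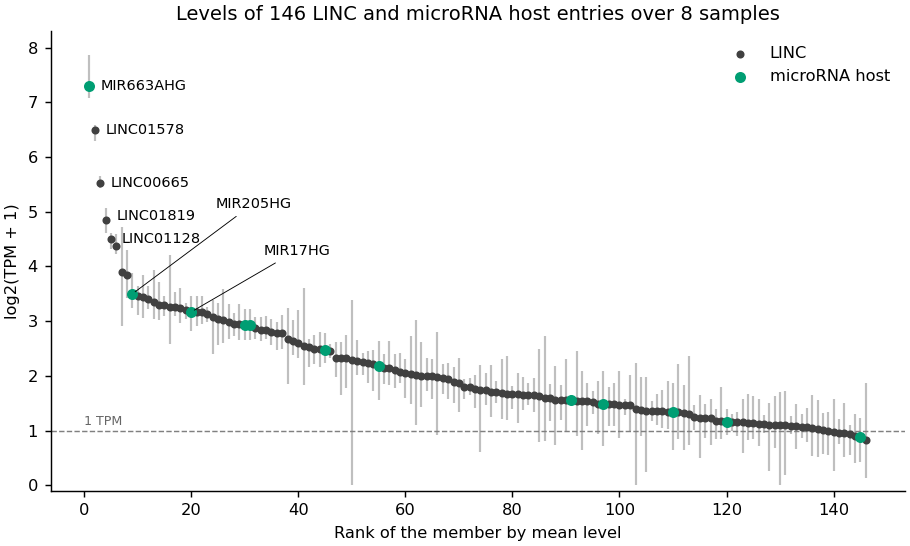
Mean log2(TPM + 1) of each of the 146 members over the 8 samples, ordered by that mean, with a vertical line from the lowest to the highest sample and the microRNA hosts in green. MIR663AHG stands highest at a mean of 159 TPM, and most members lie below 5.82 TPM, the upper quartile.

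At the limit of the rule the members just inside had a fourth-highest value of 1.01 for LINC00858, 1.02 for LINC00526 and 1.03 for LINC01833 (log2 scale). The entries just outside had 0.99 for LINC00113, 0.98 for LINC01609 and 0.98 for LINC02021. Of the members, 94 reached 1 TPM in all 8 samples, 19 in 7, 12 in 6, 9 in 5 and 12 in 4. Every member entered the test of the groups, since the test used the same limit on level. In 3 members 1 sample was listed at 0. LINC00508, with a transcript of 194 nt, had values of 2.64, 0, 2.88 and 3.29 in the empty vector samples and 2.78, 3.38, 0.98 and 2.41 in the Siglec-XII samples, and it had the widest spread of all members. LINC02255, with a transcript of 199 nt, was at 0 in 1 Siglec-XII sample, and LINC02393, with one of 406 nt, was at 0 in 1 empty vector sample. The 2 entries for MIR22HG held the same values and are described once, which leaves 145 distinct sets of values, and LINC02210 also had 2 entries.

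The highest host transcript was MIR663AHG, which holds the hairpin of miR-663a (GRCh37 chr20:26148453-26232182, minus strand). Its log2 level was 7.23, 7.86, 7.51 and 7.21 in the empty vector samples and 7.07, 7.11, 7.09 and 7.35 in the Siglec-XII samples. Both ranges overlapped through the highest Siglec-XII sample, and the group means of 7.45 ± 0.30 and 7.15 ± 0.13 (SD, n = 4 each) differed by -0.30 with a standard error of 0.14 and a limma adjusted p of 0.314. Without the second empty vector sample, the highest, the difference was -0.16, and with another sample left out it reached -0.38. With quantile normalization and with equal upper quartiles it was -0.36. The unadjusted limma p-values were then 0.0231 and 0.0183, and the adjusted ones 0.315 and 0.285. The precursor MIR663A has its own entry in the table, with log2 levels of 9.17, 10.16, 9.56 and 9.10 and then 9.31, 9.04, 9.30 and 9.05. The second empty vector sample was the highest for both entries, and the 2 entries overlap in the genome, so the division of reads between them is uncertain. It was the only precursor of the 17 with a value above 0 in every sample. Of the rest, 12 were listed at 0 in all 8 samples, including all 6 of MIR17HG, and 4 were above 0 in 1 to 3 samples.

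MIR17HG, the host of the growth-promoting miR-17-92 cluster and a known MYC target (chr13:91999940-92049846, plus strand), had levels of 2.83, 3.32, 3.26 and 3.45 in the empty vector group and 3.12, 3.16, 3.17 and 3.04 in the Siglec-XII group. All 4 Siglec-XII values lay inside the empty vector range, and the difference was -0.09 ± 0.129 (SE, adjusted p = 0.771). The low end of that range was 1 library, and without this first empty vector sample the groups did not overlap and the difference was -0.22 (adjusted p = 0.331). MIR222HG, the host of the pair with a shared seed that represses the cell cycle inhibitor CDKN1B (chrX:45604638-45629677, minus strand), was low at 1.07, 1.14, 1.35 and 1.27 and then 1.39, 0.92, 1.10 and 1.07. Its difference was also -0.09, within the spread of either group (adjusted p = 0.805).

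The hosts of microRNAs known from epithelia differed in level more than they differed between groups. MIR205HG, host of miR-205, which is abundant in stratified epithelium (chr1:209602162-209606193, plus strand), had 3.33, 3.25, 3.80 and 3.88 without and 3.60, 3.34, 3.40 and 3.39 with Siglec-XII. MIR200CHG, host of miR-200c and miR-141, which repress the mesenchymal factors ZEB1 and ZEB2 (chr12:7072389-7073610, plus strand), had 1.23, 1.80, 0.72 and 1.59 and then 2.08, 1.04, 1.76 and 1.71. The ranges overlapped for both hosts, and the differences were -0.14 ± 0.150 (adjusted p = 0.691) and 0.31 ± 0.277 (SE, adjusted p = 0.610).

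Hosts tied to stress or to the cell cycle gave the same picture. MIR22HG, an early stress-responsive transcript and host of miR-22 (chr17:1614741-1620468, minus strand), had 2.93, 3.21, 2.69 and 3.13 and then 3.02, 2.96, 2.81 and 2.66, a difference of -0.13 (adjusted p = 0.665). MIR210HG, host of the hypoxia-induced miR-210 (chr11:565657-568457, minus strand), had 0.65, 1.54, 1.71 and 1.22 and then 1.86, 1.49, 1.29 and 0.997, a difference of 0.13 (adjusted p = 0.844). A second entry for MIR210HG stayed below the rule, at 0 to 0.48. MIR503HG, host of miR-503, a repressor of G1 cyclins (chrX:133677149-133680672, minus strand), had 2.01, 1.96, 2.40 and 2.52 and then 2.36, 2.63, 1.56 and 1.99, a difference of -0.09 (adjusted p = 0.887). In each of these 3 hosts the ranges of the groups overlapped. MIR22HG overlaps the protein-coding gene WDR81 on the other strand, and the annotated starts lie 651 nt apart. The level of WDR81 was 1.91 in the empty vector group and 2.44 in the Siglec-XII group. That difference was 0.53, with a limma adjusted p of 0.176.

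The remaining 3 hosts were MIR4458HG (2.43 against 2.52, chr5:8450814-8487043), MIR600HG (1.53 against 1.58, chr9:125871773-125877756, within the gene STRBP) and MIR2052HG (0.96 against 0.80, chr8:75512010-75735548), with differences of 0.09, 0.05 and -0.15. In order of mean level the hosts ran from MIR663AHG through MIR205HG, MIR17HG and MIR22HG to MIR4458HG and MIR503HG, and then to MIR600HG, MIR200CHG, MIR210HG, MIR222HG and MIR2052HG. Among neighbours in this order only MIR663AHG and MIR205HG did not overlap over the 8 samples. The 12 host entries include both entries of MIR22HG, which hold the same values. Of the 12, 8 had a lower and 4 a higher mean in the Siglec-XII group. None of the 12 passed the test, and their median difference was -0.09 against 0.07 for all tested entries. The 95% interval of the difference lay within 1 unit of log2(TPM + 1) for all 12 entries, which is not a limit on fold change for hosts near 1 TPM, and with a pseudocount of 0.1 it did so for 9 of the 12. The difference of MIR2052HG was then -0.35.

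**Figure D2:**
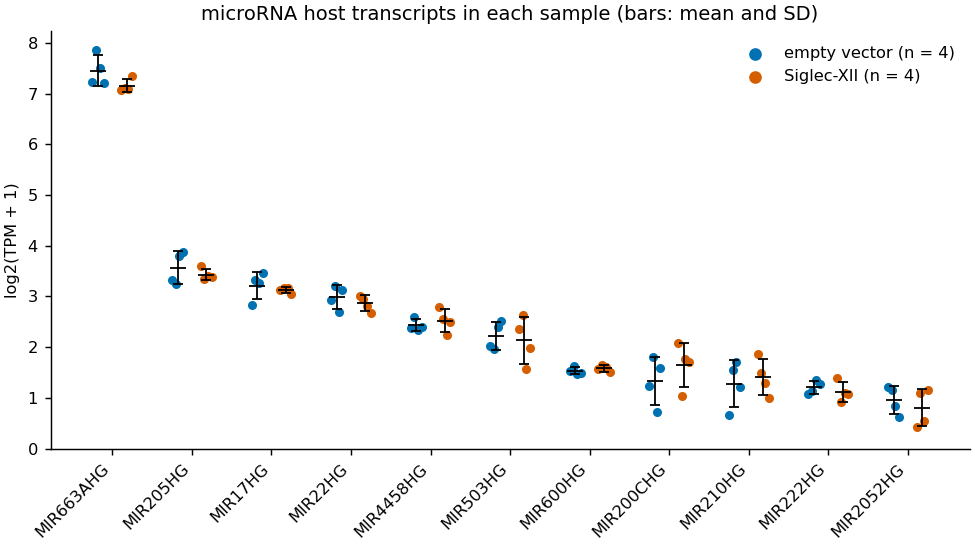
Log2(TPM + 1) of the 11 distinct microRNA host transcripts in each of the 8 samples, empty vector in blue and Siglec-XII in orange, with the mean and SD of each group in black. The 4 values of one group overlap those of the other for every host, and MIR663AHG lies well above the rest.

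Another 44 host entries stayed below the rule. Of these, 42 were under 1 TPM in every sample and 8 were listed at 0 in all of them. MIR4453HG came closest by mean level, at 0.55 to 0.99 on the log2 scale. MIR100HG, which holds let-7a-2, miR-100 and miR-125b-1, had 0.19 to 0.82, and MIR31HG, host of miR-31, had 0 to 0.74. Host symbols with a hyphen fell outside the rule by their form, and 2 of 7 such entries, MIR9-3HG and MIR4435-2HG, reached the level.

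Among the LINC members the highest was LINC01578, annotated as CHASERR (chr15:93362770-93442931, plus strand). This conserved lncRNA is known to restrain the chromatin remodeler gene CHD2 in cis, and its annotated span overlaps that gene on the same strand. Its log2 level was 6.38, 6.59, 6.52 and 6.59 in the empty vector group and 6.52, 6.30, 6.52 and 6.51 in the Siglec-XII group, a mean of 89.2 TPM, with a difference of -0.06 ± 0.068 (SE, adjusted p = 0.700). CHD2 itself had group means of 5.65 and 5.72, and the division of reads between the overlapping entries is uncertain. Neither gene differed between groups by more than the spread within them.

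LINC01819 followed LINC00665 in rank, at 28.0 TPM (chr2:43199395-43267801), then LINC01128 at 21.8 TPM (chr1:760518-794826) and LINC00888 at 19.8 TPM (chr3:183169529-183173123), an entry that the annotation lists as a transcribed pseudogene. Their differences were -0.06, 0.07 and -0.03, with adjusted p-values of 0.780, 0.691 and 0.910, and the sign of that of LINC01128 turned with the scaling. LINC00674, at 15.2 TPM, had levels from 2.92 to 4.71 in the empty vector group and from 3.53 to 4.72 in the Siglec-XII group. It has an annotated transcript of 160 nt, and its SDs of 0.74 and 0.59 were many times those of LINC00665. LINC00667, at a mean log2 level of 3.45, overlaps ZBTB14 and had 3.11 to 3.64 and then 3.40 to 3.56.

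To ask whether members differed between Siglec-XII and empty vector cells, limma was fitted to all 15590 entries. None of the 146 members passed an adjusted p of 0.05, against 101 of all tested entries (0.648%), and the lowest adjusted p among the members was 0.115, for LINC01089. The number over all entries moved with single libraries. It was 49 without the third and 159 without the second empty vector sample, and the count of members stayed 0 in both. At an unadjusted p of 0.05 or less there were 11 members, which is 7.53% of them, against 16.5% of all tested entries and 7.46% of the 1207 other tested lncRNA entries. Of these 11, all LINC entries, 8 were higher in the Siglec-XII group (background 13.9%) and 3 lower (background 2.61%). This split depended on the scaling: with quantile normalization it was 3 higher and 6 lower, and with equal upper quartiles 4 higher and 7 lower. Under these scalings 1972 and 2008 of all 15590 tested entries had such a p. Their split by direction is not given, so the turned split is not read as particular to the members. The groups did not overlap in 4 members, or 2.74%, against 10.8% of all tested entries. The share was 6.06% for tested entries within the middle range of the members' levels and 4.23% for the other tested lncRNA entries. Of the 4 members, the Siglec-XII samples were higher in 3 (background 9.17%) and lower in 1 (background 1.68%). The lower one was LINC00882, which the level rule could take only because it was high in the empty vector group. Without it there were 10 of 145 members (6.90%) at an unadjusted p of 0.05 or less, 8 higher and 2 lower, and 3 (2.07%) without overlap. With any 1 sample left out, 5 of the 11 stayed at an unadjusted p of 0.05 or less, namely LINC00665, LINC00668, LINC00882, LINC01089 and LINC02298. Of these, LINC00882 passed the level limit only, and LINC02298 mainly, through the group where it was high, so their p-values depend in part on the rule. LINC01549, among the 8 higher, passed the limit in the same way as LINC02298.

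The level of an entry bears on these shares. Members under a mean of 2 TPM had an unadjusted p of 0.05 or less in 3 of 55 cases, 5.45% against 5.86% of all entries of that level. The counts were 1 of 49 between 2 and 5 TPM (2.04% against 8.41%), 5 of 31 between 5 and 10 TPM (16.1% against 15.1%) and 2 of 11 at 10 TPM or more (18.2% against 21.5%). Members varied more between samples than the typical entry, with a median residual SD of 0.23 against 0.14 on the log2 scale, but tested entries within the middle range of the members' levels had 0.22 and other tested lncRNA entries 0.27. On the log2(TPM + 1) scale, which understates the change of low entries, no member differed by 1 unit or more, and the 95% interval lay within 1 unit of 0 for 131 of 146 members. With a pseudocount of 0.1 in place of 1, 7 members differed by 1 log2 unit or more, none past an adjusted p of 0.05, and the interval lay within 1 unit for 105. The median difference was 0.03, with 80 members higher and 66 lower and a range from -0.68 for LINC02585 to 0.78 for LINC02298, while all tested entries had a median of 0.07. Under quantile normalization the numbers were 64 higher with a median of -0.02.

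**Figure D3:**
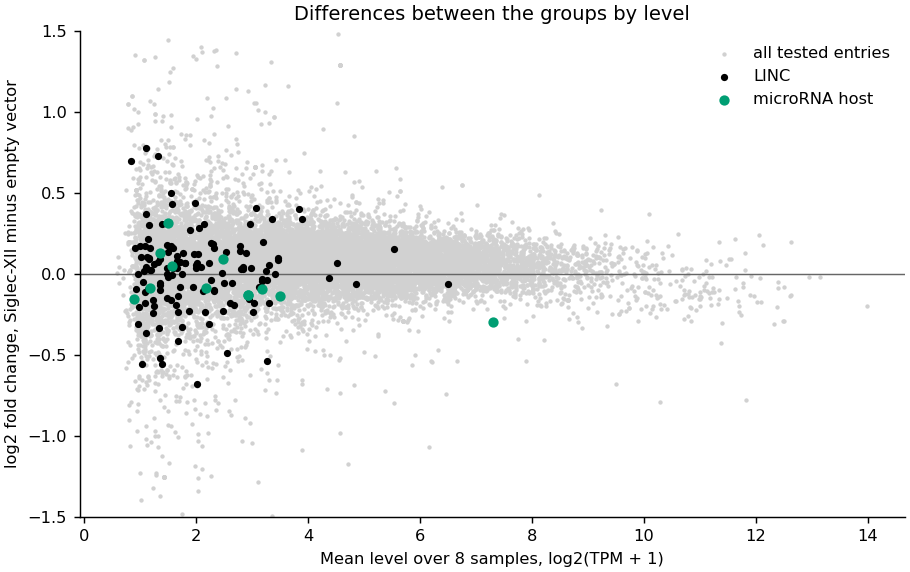
Difference of the group means (Siglec-XII minus empty vector, log2) against the mean log2(TPM + 1) over 8 samples for all tested entries in grey, LINC members in black and microRNA hosts in green. The members lie between -0.68 and 0.78 and mostly at low levels, where the grey cloud is wide, and 81 grey entries beyond 1.5 in either direction are not drawn.

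LINC01089, also known as LIMT and described as a growth factor-repressed lncRNA of breast epithelium, had the lowest p of all members. It lies at chr12:122233173-122241812 on the minus strand. Its log2 level was 2.73, 2.87, 2.74 and 2.86 in the empty vector group and 3.14, 3.14, 3.13 and 3.04 in the Siglec-XII group. Every Siglec-XII sample was above every empty vector sample, and the difference was 0.31 with a standard error of 0.079, an unadjusted p of 0.00307 and an adjusted p of 0.115. Leaving out any one sample gave 0.29 to 0.34, with adjusted p-values of 0.0982 to 0.248. The protein-coding gene RHOF overlaps LINC01089 on the same strand, so reads may be shared between them. RHOF had means of 1.10 and 1.46, a difference of 0.36 (limma adjusted p = 0.573).

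LINC00668, a lncRNA described in several carcinomas (chr18:6919495-6929965, minus strand), also did not overlap between groups. Its values were 3.42, 3.68, 3.80 and 3.66 without and 3.90, 3.85, 4.12 and 4.30 with Siglec-XII, a difference of 0.40 ± 0.119 (SE, adjusted p = 0.156). LINC00641 (chr14:21668238-21675059, minus strand) was separated by a smaller step, from 3.12, 3.15, 3.04 and 3.10 to 3.30, 3.30, 3.25 and 3.33. That difference was 0.20 ± 0.070 (adjusted p = 0.216), and this member had the smallest spread of all.

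LINC00665, the third-highest member and a transcript often studied in carcinomas (chr19:36750442-36822672, minus strand), had 5.44, 5.43, 5.51 and 5.43 and then 5.63, 5.50, 5.63 and 5.66. One Siglec-XII sample fell below the highest empty vector sample, and the difference was 0.15 ± 0.052 (adjusted p = 0.205). It depended on the scaling, at 0.08 with quantile normalization (adjusted p = 0.526) and 0.09 with equal upper quartiles.

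The largest differences on the log2 scale belonged to low members with wide spreads. LINC02298 had 0.52, 0.71, 0.19 and 1.41 in the empty vector group and 1.07, 1.58, 1.72 and 1.57 in the Siglec-XII group, a difference of 0.78 ± 0.261 (adjusted p = 0.200). LINC01549 had 0.74, 0.85, 0.87 and 1.31 and then 1.89, 0.74, 1.70 and 2.36, a difference of 0.73 ± 0.310 (adjusted p = 0.285). The groups overlapped in both, and both members reached the level limit mainly in Siglec-XII samples, so their p-values depend in part on the rule. With a pseudocount of 0.1 the differences were 1.55 and 1.10, and with 1 sample left out they ran from 0.61 to 1.01 and from 0.50 to 1.04. LINC00205 differed by 0.41 and LINC01145 by 0.34, with adjusted p-values of 0.282 and 0.270. The first fell to 0.25 without the first empty vector sample and the second to 0.20 without the second Siglec-XII sample. LINC01145 is annotated as a transcribed pseudogene in a duplicated part of chromosome 1, so its reads may be shared with near copies.

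Of the 3 members that were lower, LINC00882 (chr3:106349316-106959518, minus strand) did not overlap, with 1.28, 1.34, 1.06 and 1.55 in the empty vector group and 0.92, 0.58, 0.51 and 0.99 in the Siglec-XII group. The difference was -0.56, or -1.04 with a pseudocount of 0.1, and because this entry passed the level limit only through the empty vector group, it is given as a description with no test. LINC01002 had 3.21, 3.51, 4.22 and 3.21 and then 3.34, 2.59, 2.94 and 3.13, a difference of -0.54 (adjusted p = 0.300), or -0.31 without the third empty vector sample. LINC00623 had 2.26, 2.35, 2.48 and 2.40 and then 2.29, 1.73, 2.11 and 2.13, a difference of -0.31 (adjusted p = 0.291), or -0.20 without the second Siglec-XII sample. For LINC01002 and LINC00623 the groups overlapped.

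**Figure D4:**
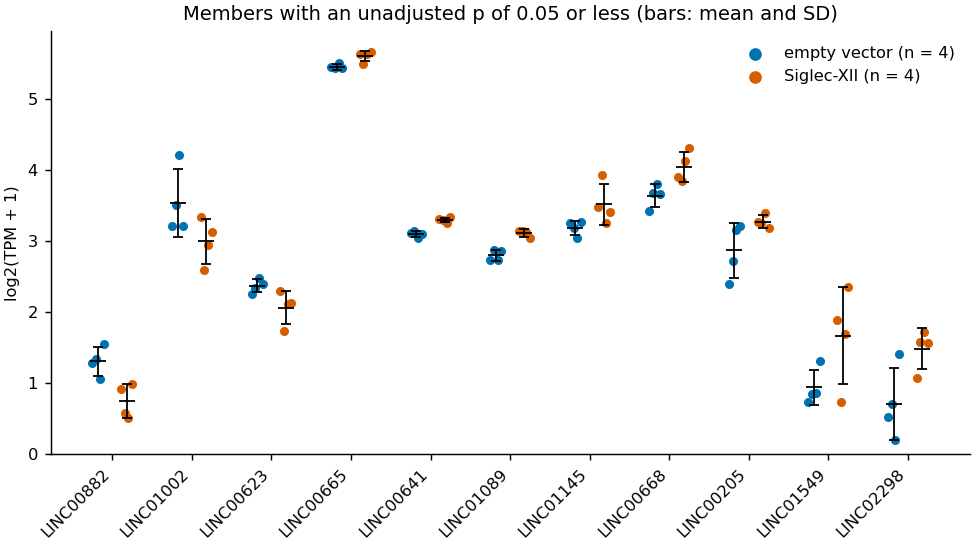
Log2(TPM + 1) in each sample for the 11 members with an unadjusted p of 0.05 or less, ordered by difference, with the group mean and SD in black. The groups are free of overlap for LINC00882, LINC00641, LINC01089 and LINC00668, and none of the 11 passed an adjusted p of 0.05. LINC00882 passed the level limit only through the empty vector group, and LINC02298 and LINC01549 mainly through the Siglec-XII group. Of all tested entries, 16.5% had such an unadjusted p and 10.8% were free of overlap.

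Some lncRNAs start head to head with a protein-coding gene and share its promoter region. Such a divergent start within 1000 nt of a coding gene's start was found for 8 of 142 members with a GRCh37 position (5.63%), against 2.39% of the entries of the same symbol forms that were not members. LINC01089 is divergent to SETD1B, a histone H3 lysine methyltransferase, which had means of 3.92 and 4.12 and a difference of 0.20 (adjusted p = 0.156). LINC00205 is divergent to POFUT2, a protein O-fucosyltransferase, with a difference of 0.18 (adjusted p = 0.236). In these pairs the member and its partner were both higher in the Siglec-XII group. LINC02585 and CELSR3 went opposite ways, at -0.68 and 0.18, with adjusted p-values of 0.396 and 0.478. LINC01534 and ZNF567 were both lower, at -0.33 and -0.07, with adjusted p-values of 0.624 and 0.778. For LINC01184 and SLC12A2, LINC01521 and PATZ1, and LINC01560 and ZNF41, the differences were 0.00 and 0.10, 0.10 and 0.24, and 0.16 and 0.17. LINC01547 and its partner SLX9, listed in the table under its older symbol FAM207A, had 0.04 and 0.09, with adjusted p-values of 0.915 and 0.544. None of these members or partners passed an adjusted p of 0.05, and the strand setting of the quantification is not given in the sources used here, so reads from overlapping antisense partners may not be told apart.

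Members also differed from the entries of the same symbol forms below the rule in features that the rule did not use. In the 300 bases from 250 before to 50 after the annotated start (GRCh37), 48 of 142 members (33.8%) had the composition of a CpG island, taken as at least 50% GC and a CpG observed-to-expected ratio of at least 0.6, against 209 of 1761 (11.9%) below the rule, 19.3% of all lncRNA entries and 71.4% of tested protein-coding entries. The median number of CpG dinucleotides was 7 in members and 4 below the rule. Median transcript length was 1220 and 910 nt, the share that overlapped a protein-coding gene 19.0% and 8.18%, and the median distance to the nearest one 18844 and 53790 nt. Among members the median level was 1.69 with and 1.77 without an island-like start (log2 scale). These shares are descriptions of annotated starts with no test, and an annotated start need not be the one used in these cells.

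**Figure D5:**
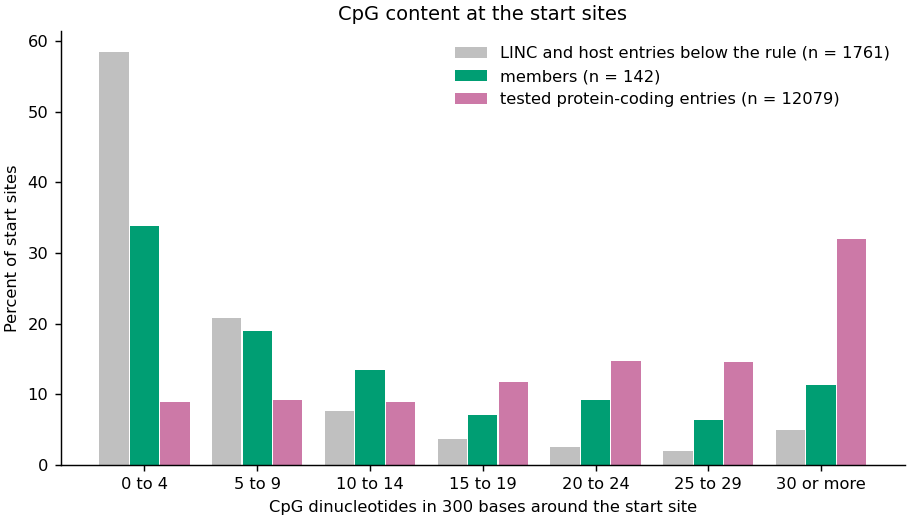
Percent of annotated start sites by the number of CpG dinucleotides in 300 bases, for members (n = 142), LINC and host entries below the rule (n = 1761) and tested protein-coding entries (n = 12079). Members lie between the other two sets, with 33.8% at 0 to 4 CpG and 11.3% at 30 or more.

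The starts of MIR17HG and MIR205HG show a CpG-rich and the most CpG-poor window among the hosts, of which MIR210HG had the most CpG, at 44. Both sequences run 5′ to 3′ on the plus strand with each CG in capitals. The MIR17HG window (GRCh37 chr13:91999690-91999989) holds 42 CpG dinucleotides and the MIR205HG window (GRCh37 chr1:209601912-209602211) holds 1, while their mean levels were 8.06 and 10.4 TPM.
MIR17HG: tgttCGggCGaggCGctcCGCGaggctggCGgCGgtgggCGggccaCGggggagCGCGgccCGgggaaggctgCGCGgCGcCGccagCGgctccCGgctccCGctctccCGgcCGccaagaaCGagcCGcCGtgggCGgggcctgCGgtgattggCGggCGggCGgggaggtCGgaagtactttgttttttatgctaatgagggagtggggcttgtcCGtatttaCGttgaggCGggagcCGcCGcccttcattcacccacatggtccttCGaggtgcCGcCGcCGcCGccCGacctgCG
MIR205HG: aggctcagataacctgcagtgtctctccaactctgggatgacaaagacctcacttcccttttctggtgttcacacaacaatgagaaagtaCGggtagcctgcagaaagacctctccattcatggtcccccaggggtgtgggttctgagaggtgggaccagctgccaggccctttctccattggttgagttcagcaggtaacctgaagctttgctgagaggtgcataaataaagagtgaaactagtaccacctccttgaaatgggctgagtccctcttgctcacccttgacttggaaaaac

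The genes that make and use microRNAs, a list of 22 that were all tested, had no member past an adjusted p of 0.05. At an unadjusted p of 0.05 or less 6 of the 22 were higher and 0 lower, against 13.9% and 2.61% of all tested entries, and the median difference was 0.09, against 0.07 for all tested entries. The number was 4 with quantile normalization and 3 with equal upper quartiles, where the medians were 0.05 and 0.03. Of all 15590 tested entries, 1972 and 2008 had such a p under these scalings. DICER1, which cuts precursors to mature length, had 4.12, 4.16, 4.03 and 4.05 in the empty vector group and 4.77, 4.47, 4.37 and 4.36 in the Siglec-XII group, a difference of 0.40 (adjusted p = 0.104). AGO1, an Argonaute protein that holds the mature strand, went from a mean of 4.22 to 4.47, a difference of 0.25 (adjusted p = 0.112). The groups did not overlap for these genes or for LIN28A, the let-7 blocker, which had means of 7.19 and 7.33 (adjusted p = 0.147). These were 3 of the 22, where 9.17% of all tested entries were higher without overlap. DROSHA, which makes the first cut in host transcripts, had 6.12, 5.47, 5.71 and 5.20 and then 5.48, 5.58, 5.49 and 5.39, with the 4 Siglec-XII values inside the empty vector range and a difference of -0.14 (adjusted p = 0.708).

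The list of 22 genes for nuclear RNA decay and termination, which limit many lncRNAs, also had none past the adjusted threshold. INTS11, the Integrator endonuclease, was higher by 0.20 (adjusted p = 0.217) and EXOSC8, a subunit of the exosome ring, had a difference of -0.17 (adjusted p = 0.288), the only ones of that list at an unadjusted p of 0.05 or less. That is 1 of the 22 higher and 1 lower, against 13.9% and 2.61% of all tested entries. The median difference of the list was 0.02.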

How the data were processed

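Per the labels, total RNA of 8 Caco-2 samples was made into stranded libraries with an rRNA-depleting kit, while the study's methods name a poly(A) kit, so the share of RNAs without a poly(A) tail is uncertain. The authors quantified reads with kallisto (0.45.0 in the submitters' processing notes) against a human hg19 annotation and deposited 1 table of log2(TPM + 1) values, whose columns each sum to 1000000 TPM once the log is undone. TPM keeps no read depth, so the depth per sample is unknown and no counting interval was given. A fold change is on the log2(TPM + 1) scale and understates the change of low entries. All 8 columns were used.

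Entries with a value of at least 1 in at least 4 of 8 columns (15590) were tested with limma 3.58.1 in R 4.3.3 (lmFit, eBayes with trend, no block), with Benjamini-Hochberg adjustment over all of them. The study ran DESeq2 on counts, which a table of log2 TPM does not allow. The fit was tested on simulated data. The members and gene lists were chosen with earlier results of these data known. Named in full were all hosts, the 10 highest members, those at an unadjusted p of 0.05 or less, and 3 on each side of the level limit, with neighbours and list genes. LINC00508, LINC02255 and LINC02393 (each at 0 in 1 sample), some hosts below the rule and the divergent pairs were chosen after their values were seen. Of the decay list, MPP6 was left out because the symbol also names another gene, and MPHOSPH6 was used. Positions and starts came from GENCODE 44 mapped to GRCh37, found for 142 of 146 members, and microRNA sequences from RefSeq (GRCh38.p14). The deviations of same-numbered samples of the 2 groups had correlations of -0.0742 to 0.0591, and the main fit did not pair the samples. Alternatives were another pseudocount (0.1), no filter, a mean of at least 5 TPM, 2 other scalings, no trend, a replicate block, small structured RNAs left out, and each sample left out.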

Additional observations from a re-analysis of the deposited data

Results flagged for a closer look

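In groups of 4 samples, the highest or lowest sample was compared with its nearest neighbour by Dixon's ratio for each described member in each group, 64 groups in all. The ratio passed its 95% critical value in 4 of them, and chance gives about 5% of groups. All 4 were in the Siglec-XII group. Replicate 4 was high for MIR663AHG, at 7.35 on the log2 scale where the other samples had 7.07 to 7.11, and low for LINC01089, at 3.04 where the other samples had 3.13 to 3.14. Replicate 2 was low for LINC01578, at 6.30 where the other samples had 6.51 to 6.52, and low for LINC00665, at 5.50 where the other samples had 5.63 to 5.66.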

How the results depend on the processing

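The number of members past an adjusted p of 0.05 was 0 under all 16 alternatives, and so were those of the microRNA and RNA decay lists. At an unadjusted p of 0.05 or less it was 11, and 8 to 14 under the alternatives, of which a mean of at least 5 TPM left 42 members to test. The number over all entries was 101, and it was 51 with no filter, 54 with no trend, 20 with small structured RNAs left out, and 49 to 159 with 1 sample left out. The causes of these shifts were not tested. Of 453 values of the described members under the alternatives, 442 kept the sign of the difference and 11, in 6 members, did not. LINC01128 was at -0.0048 under quantile normalization. With 1 sample left out the differences ran from -0.0801 to 0.272 for MIR210HG, from -0.0155 to 0.159 for LINC00667, from -0.109 to 0.00644 for LINC01819, from -0.251 to 0.106 for MIR503HG and from -0.105 to 0.0146 for LINC00888. Quantile normalization moved the median difference of all entries from 0.07 to 0.01.

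Same-numbered samples of the groups had correlations of -0.0742 to 0.0591 between their deviations from the group means, and 4 of 8 libraries were most alike to their own number. These values do not show whether same-numbered samples were handled together, and the main fit did not pair them. With the replicate number as a block, 10 members had an unadjusted p of 0.05 or less (9 higher, 1 lower), 0 passed the adjusted threshold, and the number of all entries past the adjusted threshold was 69. The share of all entries at the unadjusted level is not given for this fit, so those 10 are not read as a result about the members. Read depth is not known, and LINC00508, with a mean of 5.12 TPM, had the widest interval of the members.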
